A study of Mus musculus with 6 samples.

Results

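The receptors that bind the Fc part of IgG were followed in bone marrow monocytes that lacked *Syk*, the kinase that transmits their signal, and in monocytes that kept it. The 6 genes were taken by name from a table of 49585 genes. They are the activating receptor genes *Fcgr4*, *Fcgr1* and *Fcgr3*, the signalling chain gene *Fcer1g*, the inhibitory receptor gene *Fcgr2b*, and *Fcgrt*, which encodes the neonatal Fc receptor. Each had a single row, and all 6 passed the filter on low values, so that all were tested.

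The comparison set 3 libraries of Sykdel/del monocytes against 3 libraries of Syk+/+ monocytes. Both genotypes also carried Rosa26CreER(T2)+/+, a Cre recombinase expressed in most cell types and switched on by tamoxifen, and both came from mice kept on a high-fat diet, for which the submitters give 8 weeks. The study bred its line from C57BL/6J mice. By its methods, tamoxifen was given to young adult mice, at about the age at which the diet began. Whether Syk+/+ mice received tamoxifen is not stated in the sources used here. Deletion was systemic, so other cells of the mice had lost *Syk* too. Monocytes were taken from marrow with an isolation kit. Nothing in the labels says that the 3 libraries of a genotype came from separate mice, so the p-values reflect spread among these samples alone, and that spread may be technical.

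Activating Fc gamma receptors bind IgG in immune complexes and on opsonised particles, and they signal through the common gamma chain, the product of *Fcer1g*. This chain carries an ITAM, a tyrosine motif that SRC family kinases phosphorylate and on which SYK docks, which starts phagocytosis and the release of mediators. The inhibitory receptor FcγRIIB carries an ITIM instead and recruits the lipid phosphatase SHIP1, so that the balance of activating and inhibitory receptors sets the threshold of a monocyte for immune complexes. In the mouse, FcγRIV is a receptor of non-classical monocytes, the subset that patrols vessels, and is also found on neutrophils. The neonatal receptor FcRn pairs with beta-2 microglobulin, salvages IgG from degradation and has no ITAM partner.

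Reads assigned to genes ranged from 4168626 to 6254375 in Sykdel/del libraries and from 6805111 to 7071823 in Syk+/+ libraries. The values given here are normalized counts, that is, reads multiplied by 1 factor per library, with no division by gene length. Sykdel/del replicate 1 stood apart from the other libraries of its genotype, by 10.7 and 12.1 times the sampling noise (chi-square divided by its degrees of freedom), while Sykdel/del replicates 2 and 3 differed by 2.46 times. Syk+/+ libraries differed from each other by 3.85 to 7.94 times. Monocyte genes were abundant in every library, with *Ly6c2* at 6550 to 8340 normalized counts in Sykdel/del and 6288 to 7411 in Syk+/+. *Syk* itself was counted at 4867 ± 201 in Sykdel/del and 5139 ± 587 in Syk+/+ (SD, n = 3), and its log2 fold change was -0.07 (limma adjusted p = 1.00). Exons outside the deleted one, which the sources used here do not name, are counted too, so this level does not test the genotype labels.

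*Fcgr2b*, *Fcgr4*, *Fcgr3* and *Fcer1g* lie close together on chromosome 1 of GRCm38. *Fcgr2b* spans chr1:170958617-170976547 on the minus strand, *Fcgr4* chr1:171018920-171029761 on the plus strand, *Fcgr3* chr1:171051174-171064935 on the minus strand and *Fcer1g* chr1:171229572-171234365 on the minus strand. *Fcgr1* is at chr3:96282909-96293969 and *Fcgrt* at chr7:45092990-45103851, both on the minus strand. RefSeq promoter windows of GRCm38.p6, 250 bases before to 50 bases after each start, were found for all 6 genes. The windows of the 4 IgG receptor genes are shown, since these genes belong to a single family but differ in whether they passed the test. Capitals mark GAGGAA or its reverse complement TTCCTC, the core of sites bound by PU.1, a transcription factor of myeloid cells. This motif and those named after it were chosen after the sequences had been seen.
*Fcgr4*, chr1:171018676-171018975, plus strand: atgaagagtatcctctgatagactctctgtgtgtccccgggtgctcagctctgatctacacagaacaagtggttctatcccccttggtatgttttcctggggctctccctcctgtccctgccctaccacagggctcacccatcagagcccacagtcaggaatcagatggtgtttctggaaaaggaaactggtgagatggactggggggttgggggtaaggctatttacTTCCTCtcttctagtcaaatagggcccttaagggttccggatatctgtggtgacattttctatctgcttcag
*Fcgr1*, chr3:96293920-96294219, minus strand: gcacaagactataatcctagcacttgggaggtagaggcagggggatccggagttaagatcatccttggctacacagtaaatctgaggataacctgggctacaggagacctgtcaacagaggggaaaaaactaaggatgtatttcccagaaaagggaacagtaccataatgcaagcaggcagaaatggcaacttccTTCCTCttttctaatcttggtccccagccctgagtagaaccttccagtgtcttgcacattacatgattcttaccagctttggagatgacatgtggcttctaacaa
*Fcgr3*, chr1:171059354-171059653, minus strand: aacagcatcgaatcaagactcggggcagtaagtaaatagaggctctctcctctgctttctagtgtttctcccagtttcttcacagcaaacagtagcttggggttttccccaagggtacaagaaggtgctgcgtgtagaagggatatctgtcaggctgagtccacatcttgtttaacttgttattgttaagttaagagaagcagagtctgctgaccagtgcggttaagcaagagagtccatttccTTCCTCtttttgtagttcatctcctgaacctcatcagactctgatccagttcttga
*Fcgr2b*, chr1:170976022-170976321, minus strand: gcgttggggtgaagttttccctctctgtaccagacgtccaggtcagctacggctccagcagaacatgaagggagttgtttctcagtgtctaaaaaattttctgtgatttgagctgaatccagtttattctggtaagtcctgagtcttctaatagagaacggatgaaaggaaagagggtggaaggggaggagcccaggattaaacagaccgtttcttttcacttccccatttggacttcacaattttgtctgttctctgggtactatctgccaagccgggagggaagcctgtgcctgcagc
All 3 activating receptor genes held the motif once, starting 22 bases before the start of *Fcgr4*, 55 bases before that of *Fcgr1* and 6 bases before that of *Fcgr3*. A second annotated start of *Fcgr3* has the same copy at 15 bases. The windows of *Fcgr2b*, *Fcer1g* and *Fcgrt* had no match, and 28.3% of 32851 promoter windows in the reference hold one on either strand. The core of RUNX sites, TGTGGT (reverse complement ACCACA), was found at 126 bases before and 23 bases after the start of *Fcgr4* and at 9 bases after the start of *Fcer1g*, against 16.8% of all windows. The core of FOXO sites, GTAAACA (reverse complement TGTTTAC), was in the window of *Fcgrt* alone of the 6 genes, 116 bases before the start, against 3.65% of all windows. No match overlapped another. *Fcgr4*, which fell, and *Fcgr3*, which was not called, thus both have the PU.1 core within this window.

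*Fcgr4* was the 1 gene of the 6 called, and it fell in Sykdel/del monocytes. It encodes FcγRIV, an activating receptor for IgG2 subclasses. The normalized count was 66.5, 79.3 and 117 in the Sykdel/del libraries, against 222, 431 and 207 in the Syk+/+ libraries. The highest Sykdel/del library was below the lowest Syk+/+ library, and Syk+/+ replicate 2 was well above the other 2 of its genotype. The means were 87.6 ± 26.3 in Sykdel/del and 286 ± 125 in Syk+/+ (SD, n = 3). On the log2 scale the change was -1.66 with an SE of 0.26 and a 95% interval of -2.21 to -1.10, that is 0.318-fold (limma adjusted p = 0.013). Among 14023 genes tested, 0.371% had an adjusted p under 0.05, 0.349% lower and 0.0214% higher, and *Fcgr4* had rank 24 by p. It was also the 1 gene of the 6 whose genotypes did not overlap, as was so for 10.1% of all genes tested (5.19% of all genes with Sykdel/del below Syk+/+). The reads behind these values were 60 to 76 in Sykdel/del and 224 to 449 in Syk+/+. For the closest pair of libraries, Sykdel/del replicate 3 and Syk+/+ replicate 3, the exact Poisson intervals on the scale of normalized counts were 92.1 to 147 in Sykdel/del and 181 to 236 in Syk+/+, which cover counting error only. The call ended without Syk+/+ replicate 1 (log2 fold change -1.80, adjusted p = 0.070), Syk+/+ replicate 2 (-1.32, adjusted p = 0.053) or Sykdel/del replicate 2 (-1.6, adjusted p = 0.076), and when limma was run without a trend of variance on mean (-1.66, adjusted p = 0.47). It held without Sykdel/del replicate 1, the library that stood apart (-1.48, adjusted p = 0.014).

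**Figure D1:**
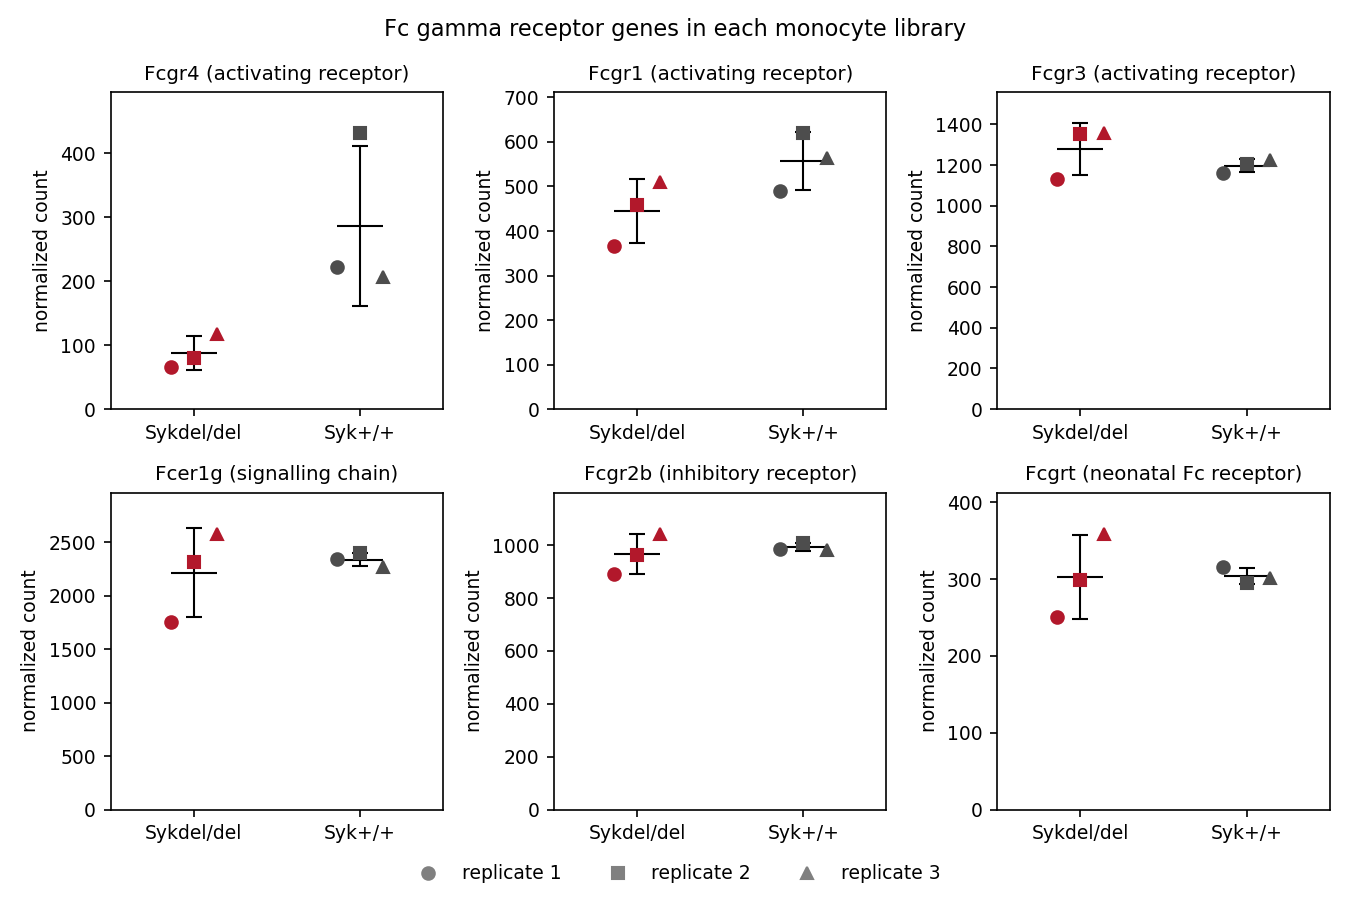
Normalized counts of the 6 genes in each library, Sykdel/del in red and Syk+/+ in grey, with the replicate as the symbol, the mean as a horizontal bar and the SD as an error bar (n = 3). *Fcgr4* libraries do not overlap (66.5 to 117 in Sykdel/del, 207 to 431 in Syk+/+), while for the other 5 genes the genotypes overlap.

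The other activating receptor genes did not pass. *Fcgr1* encodes FcγRI, the high-affinity receptor for IgG that is also carried by macrophages. Its normalized count was 367, 458 and 510.3 in Sykdel/del and 489, 619 and 565 in Syk+/+. The genotypes overlapped by 1 pair of libraries, Sykdel/del replicate 3 being above Syk+/+ replicate 1. The log2 fold change was -0.33 (SE 0.13, 95% interval -0.61 to -0.05). It did not pass after adjustment (limma adjusted p = 0.76), and before it the p was 0.023. Of the 6 genes 2 were under 0.05 before adjustment, both lower, against 5.26% of all tested genes in either direction and 3.32% among lower ones. Leaving out any 1 library kept the sign, at -0.44 to -0.20.

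*Fcgr3* encodes FcγRIII, the low-affinity activating receptor that monocytes share with natural killer cells. It had 1131, 1352 and 1356 normalized counts in Sykdel/del and 1163, 1206 and 1224 in Syk+/+. The lowest and the highest of the 6 values were both in Sykdel/del. The log2 fold change was 0.09 (SE 0.09, 95% interval -0.11 to 0.29, limma adjusted p = 1.00), so that its interval does not reach a decrease like that of *Fcgr4*. Of 7 natural killer cell markers, 5 were listed at 0 in all 6 libraries, and the 7 summed to 5.20 to 10.9 normalized counts in Sykdel/del and 1.90 to 7.40 in Syk+/+, nearly all of it *Nkg7*.

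*Fcer1g*, the chain through which all 3 activating receptors signal, was the most abundant of the 6 genes per kilobase in every library. It had 1757, 2313 and 2577 normalized counts in Sykdel/del and 2344, 2395 and 2271 in Syk+/+. The Syk+/+ libraries lay close together and inside the range of Sykdel/del. The log2 fold change was -0.09 (SE 0.12, 95% interval -0.36 to 0.17, limma adjusted p = 1.00), and without Sykdel/del replicate 1 it was 0.06.

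*Fcgr2b*, which encodes the inhibitory receptor, had the narrowest interval of the 6. It was counted at 891, 961 and 1042.5 in Sykdel/del and 987, 1009 and 979.9 in Syk+/+. Again all Syk+/+ libraries fell within the range of Sykdel/del. The log2 fold change was -0.04 (SE 0.09, 95% interval -0.23 to 0.15, limma adjusted p = 1.00), and without Sykdel/del replicate 1 it was 0.01. B cells carry this receptor as their main Fc gamma receptor, and B cell markers were low but present. *Cd79b* had 44.3 to 79.6 normalized counts in Sykdel/del and 55.7 to 71.1 in Syk+/+, and *Cd22* had 22.2 to 25 in Sykdel/del and 19.4 to 28.8 in Syk+/+, while *Ms4a1* was listed at 0 in all libraries. Their part in the value of *Fcgr2b* was not tested.

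*Fcgrt* had 250.5, 298 and 359 normalized counts in Sykdel/del and 316, 295 and 302 in Syk+/+. Its lowest and highest values were both in Sykdel/del, and the log2 fold change was -0.02 (SE 0.13, 95% interval -0.30 to 0.25, limma adjusted p = 1.00). Its sign changed without Sykdel/del replicate 1 (0.11) or Syk+/+ replicate 1 (0.0055).

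**Figure D2:**
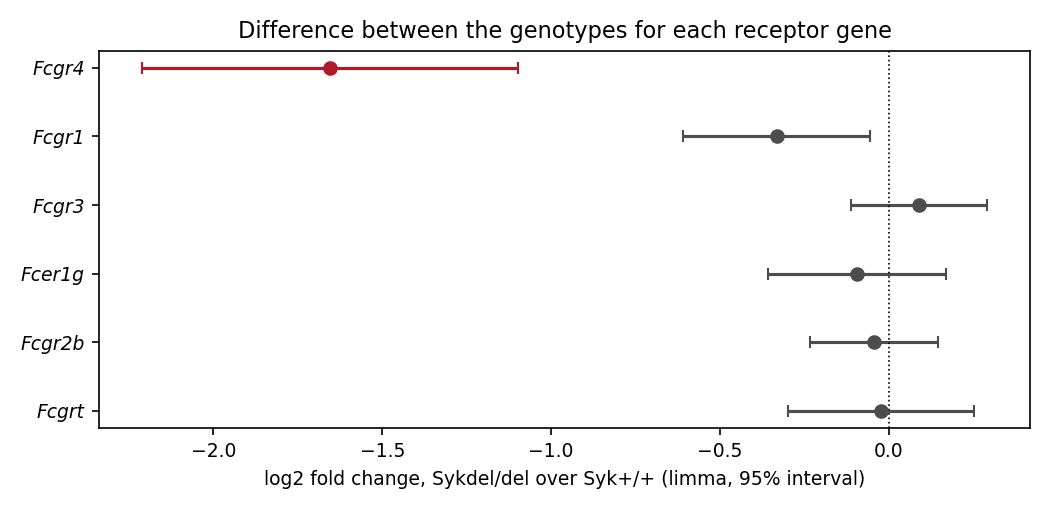
Log2 fold change of each gene, Sykdel/del over Syk+/+, from limma over 3 against 3 libraries, with bars for the 95% interval. *Fcgr4* (red, adjusted p = 0.013) lies at -1.66, *Fcgr1* at -0.33, and the intervals of the other 4 genes include 0.

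The 6 genes varied together among the Sykdel/del libraries. Sykdel/del replicate 1 had the lowest value of all 6 libraries for 6 of 6 genes, against 21.1% of all genes tested. Within Sykdel/del, replicate 1 was lowest and replicate 3 highest for 6 of 6 genes, against 21.7% of all genes. Both orders were picked out after the values of the 6 genes had been seen, so these counts are a description only. Replicate 3 was also the library with the fewest reads. The part of this spread between libraries in the values above was not tested.

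Reads of *Fcgr3* and *Fcgr2b* cannot be fully told apart. Of the 50-base stretches in the principal transcript of *Fcgr3*, 12.8% also occur in transcripts of *Fcgr2b*, and 4.75% of those of *Fcgr2b* occur in *Fcgr3*. In all, 12.5% of the stretches of *Fcgr2b* occur in transcripts of other genes. Principal transcripts of *Fcgr4*, *Fcgr1*, *Fcer1g* and *Fcgrt* shared none with another gene. How reads that match several genes were counted is not stated in the sources used here. No exon of *Fcgr4* overlaps another gene, and of the 6 genes only *Fcgr2b* has exons that overlap one, Gm38204 on the opposite strand.

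Levels of different genes were compared per kilobase of principal transcript. In Syk+/+ the order of the means was *Fcer1g* at 3467 ± 92.5 normalized counts per kilobase, *Fcgr3* at 889 ± 23.0, *Fcgr2b* at 279.9 ± 4.33, *Fcgr4* at 228 ± 99.9, *Fcgr1* at 215 ± 25.3 and *Fcgrt* at 172 ± 6.14. The SD of *Fcgr4* spans its neighbours in this order, and in Syk+/+ it ranked between place 3 and place 6 depending on the library. In Sykdel/del it ranked at place 6 in all 3 libraries, at 69.7 ± 20.9, below *Fcgr1* (172 ± 28.0) and *Fcgrt* (171 ± 30.7), which do not differ beyond their spread. *Fcer1g* (3287 ± 621), *Fcgr3* (950.0 ± 95.8) and *Fcgr2b* (272 ± 21.4) held places 1, 2 and 3 in every Sykdel/del library.

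As a share of the summed level of the 4 IgG receptor genes, *Fcgr4* made up 4.12%, 4.17% and 5.85% in Sykdel/del and 11.7%, 19.5% and 10.5% in Syk+/+. *Fcgr3* made up the largest share in every library, 63.3% to 66.3% in Sykdel/del and 50.8% to 57.9% in Syk+/+. *Fcgr1* had a mean share of 11.7% in Sykdel/del and 13.3% in Syk+/+. The share of the inhibitory *Fcgr2b* overlapped between the genotypes, at 17.9% to 19.6% in Sykdel/del and 16.2% to 18.5% in Syk+/+. These shares describe RNA levels per kilobase, and since they sum to 100% a lower share of 1 gene raises the others.

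The balance of activating against inhibitory receptor genes was read within each library as the log2 ratio of a gene to *Fcgr2b*, which does not depend on the scaling of the library. No test was run on these ratios, since they are built from the chosen genes. The ratio of *Fcgr4* to *Fcgr2b* was -3.74, -3.60 and -3.16 in Sykdel/del and -2.15, -1.23 and -2.25 in Syk+/+, a difference of means of -1.62. The ratio of *Fcgr1* was -1.28, -1.07 and -1.03 in Sykdel/del and -1.01, -0.70 and -0.80 in Syk+/+, with Sykdel/del replicate 3 just under Syk+/+ replicate 1. The ratio of *Fcgr3*, whose reads cannot be fully told apart from those of *Fcgr2b*, went the other way. It was 0.34, 0.49 and 0.38 in Sykdel/del and 0.24, 0.26 and 0.32 in Syk+/+, with Sykdel/del replicate 1 just above Syk+/+ replicate 3. In all 3 of these the genotypes did not overlap, as was so for 9.28% of 12384 genes when set against *Fcgr2b* in the same manner. The ratio of *Fcer1g* overlapped, at 0.98, 1.27 and 1.31 in Sykdel/del and 1.25, 1.25 and 1.21 in Syk+/+.

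The summed level per kilobase of the 3 activating receptor genes was 4.11, 4.59 and 4.41 times that of *Fcgr2b* in Sykdel/del, against 4.41, 5.19 and 4.67 times in Syk+/+. The genotypes overlapped in this sum, in which *Fcgr3* has the greatest weight. The level of *Fcer1g* per unit of the activating sum was 2.52, 2.76 and 2.95 in Sykdel/del and 2.83, 2.40 and 2.61 in Syk+/+, and overlapped too.

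**Figure D3:**
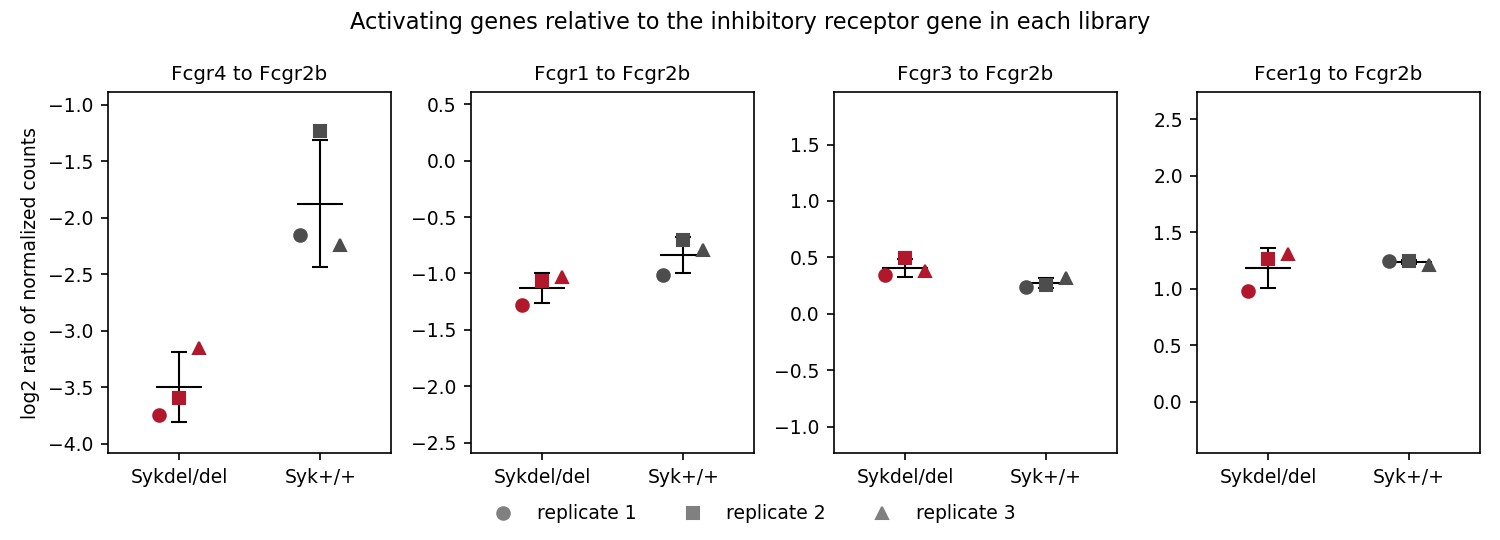
Log2 ratio of each activating gene to *Fcgr2b* within each library, on axes of equal span, with the mean and SD (n = 3). The ratio of *Fcgr4* lies between -3.74 and -3.16 in Sykdel/del and between -2.25 and -1.23 in Syk+/+, while that of *Fcer1g* overlaps between the genotypes.

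The genes around *Fcgr4* were examined next. *Fcgr3* lies 21.4 kb away and *Fcgr2b* 42.4 kb away, and both have values given above. Of 14 other tested genes within 300 kb of *Fcgr4*, 0 had an adjusted p under 0.05 by limma, 0 had an unadjusted p under 0.05 and 0 was called by limma-voom on recovered reads. Over all genes 0.371% and 5.26% passed those limits of limma, so that counts of 0 among 14 genes are near the background. Their median log2 fold change was 0.04. The extremes were *Fcrla*, a B cell protein related to Fc receptors, at 1.21 (95% interval -0.15 to 2.58) and *Pcp4l1* at -0.90 (95% interval -2.26 to 0.47), both with means under 10 normalized counts. *Sdhc*, a subunit of succinate dehydrogenase between *Fcgr3* and *Fcer1g*, had a log2 fold change of 0.13 (95% interval -0.16 to 0.42).

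**Figure D4:**
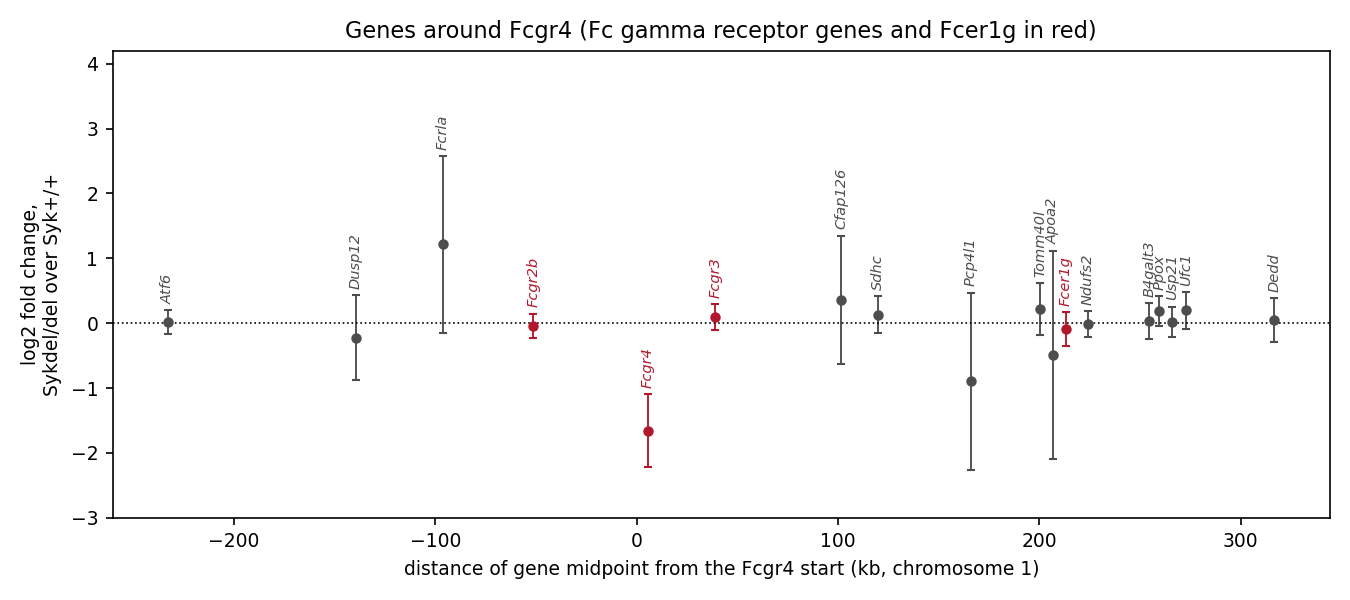
Log2 fold change, Sykdel/del over Syk+/+, of the 18 tested genes within 300 kb of *Fcgr4*, by distance of the gene midpoint from the *Fcgr4* start, with 95% intervals from limma. *Fcgr4* lies at -1.66, while *Fcgr2b*, *Fcgr3* and *Fcer1g* lie between -0.09 and 0.09.

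*Fcgr4* moved with genes of the non-classical monocyte. Of 18 marker genes of this subset, all of them tested, 8 were lower and 0 higher by limma, against 0.349% and 0.0214% of all genes. The list was drawn up with earlier results of these data known, so these counts are no independent evidence about the subset. The median of the list was -1.11 on the log2 scale, against 0.00097 over all genes tested. *Eno3* (-1.56), *Treml4* (-1.56), *Ace* (-1.39) and *Adgre4* (-1.07) were among the 8, while *Itgal* (-0.46), *Spn* (-0.18) and *Cx3cr1* (-0.27), the 3 with the highest counts summed over the 6 libraries, did not pass. Their summed level was 12574 to 15216 normalized counts in Sykdel/del and 18657 to 26126 in Syk+/+, and none of the 18 was at 0 in all libraries. *Fcgr4* is not on that list. On the log2 scale *Fcgr4* minus the mean of the 18 genes was -1.62, -1.46 and -1.31 in the Sykdel/del libraries and -1.04, -0.54 and -1.02 in the Syk+/+ libraries. It was thus lower relative to the mean of the list in every Sykdel/del library, with a difference of means of -0.60 on the log2 scale. The mean of the list takes in genes with small changes, such as *Spn*. Within the list *Pparg* (-1.98) and *Dusp16* (-1.89) fell more than *Fcgr4*, and every other gene fell less. In bulk RNA, fewer non-classical monocytes and less *Fcgr4* RNA per cell cannot be told apart. The part of the subset in the value of *Fcgr4* was not tested.

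Markers of other cells that carry Fc gamma receptors were measured in the same libraries. These lists too were drawn up with earlier results of these data known. Among all genes tested 0.371% had an adjusted p under 0.05. The 10 markers of neutrophils and their precursors summed to 2155 to 3573 in Sykdel/del and 2102 to 3092 in Syk+/+, and 0 of the 10 had an adjusted p under 0.05 in limma. The 11 markers of resident macrophages summed to 1421 to 1724 in Sykdel/del and 2041 to 2222 in Syk+/+ without overlap. Their median log2 fold change was -1.11, and 2 were lower by limma, *C1qc* (-1.72) and *Cd5l* (-1.62). Before adjustment 9 of the 11 had a limma p under 0.05, all lower in Sykdel/del, against 5.26% of all genes in either direction. None of the 11 was at 0 in all libraries, and *Adgre1* (-0.19), *Axl* (-0.40) and *Vcam1* (-1.19), the 3 with the highest counts summed over the 6 libraries, did not pass. Their part in the values of *Fcgr4* and *Fcgr1* was not tested. The 10 markers of classical monocytes summed to 216511 to 230938 in Sykdel/del and 187135 to 206918 in Syk+/+, with 0 that passed and a median of 0.14 on the log2 scale. The 9 B cell markers summed to 87.5 to 131 in Sykdel/del and 115 to 122 in Syk+/+, with 2 of the 9 listed at 0 in all libraries. The 7 plasma cell markers, of cells that carry FcγRIIB, summed to 772 to 926 in Sykdel/del and 451 to 646 in Syk+/+ without overlap. By limma and by limma-voom 0 of them passed. An unadjusted p under 0.05 was found for 4, all higher in Sykdel/del, against 5.26% of all genes in either direction. Among the 4 *Jchain*, the joining chain of secreted antibodies, had a log2 fold change of 0.99 (limma adjusted p = 0.063). On the same list *Derl3* (-0.51) and *Tnfrsf17* (-0.11) went the other way. The 7 dendritic cell markers summed to 474 to 556 in Sykdel/del and 364 to 508 in Syk+/+, and the 6 markers of mast cells and basophils to 146 to 192 in Sykdel/del and 185 to 277 in Syk+/+, with 0 passed by limma or limma-voom in either list and 1 gene, of the dendritic cell list, with an unadjusted p under 0.05. The part of these cells in the receptor values was not tested.

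The gene with the pattern most like *Fcgr4* over the 6 libraries, searched over 8768 genes that averaged 50 normalized counts or more, was *Cyth3*, an exchange factor for ARF GTPases (Pearson r = 0.996, on log2 values), with a log2 fold change of -0.99 (adjusted p = 0.034). *Ikzf3*, which encodes the zinc finger factor Aiolos, followed (r = 0.992, log2 fold change -1.66, adjusted p = 0.012), and then *Phlpp1*, a phosphatase gene (r = 0.991, -0.72, adjusted p = 0.13). The genotype difference itself enters these correlations over 6 libraries. For the others the first gene was *Mink1* for *Fcgr1* (r = 0.998), *Mcemp1* for *Fcgr3* (r = 0.994), *Bcl7c* for *Fcer1g* (r = 0.994), *Ltbr* for *Fcgr2b* (r = 0.996) and *Higd2a* for *Fcgrt* (r = 0.999). None of these 5 had an adjusted p under 0.05 by limma. These correlations are a description, taken from a search over many genes with few libraries.

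Beyond the receptors themselves, 101 other genes of the pathway were followed in 8 lists, and 91 of them were tested. By limma 3 were lower, 0 were higher and 88 were not called, which is 3.30% against 0.371% of all genes. The lists were drawn up with earlier results of these data known, so the higher share is no independent evidence about the pathway. Their median log2 fold change was -0.06, against 0.00097 over all genes. The 3 genes were *Lilra5*, *Fyn* and *Pik3ap1*, and each belongs to a different step.

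Among 10 receptors known to pair with the gamma chain outside the Fc gamma family, 7 were tested and *Lilra5* was lower. It encodes an activating leukocyte receptor that in human cells signals through the gamma chain. Its normalized count was 7.80, 5.20 and 18.7 in Sykdel/del and 40.2, 97.9 and 55.4 in Syk+/+, with no overlap. The log2 fold change was -2.58 (SE 0.42, limma adjusted p = 0.019). *Pira2*, a paired immunoglobulin-like receptor, had 0.13 (95% interval -0.12 to 0.38), and *Clec4d*, a lectin receptor gene with fewer than 10 normalized counts in every library, had -0.87 (95% interval -2.03 to 0.29). The call of *Lilra5* ended with limma-voom (adjusted p = 0.055) and without the trend (adjusted p = 0.45). It also ended when Sykdel/del replicate 2 or any 1 Syk+/+ library was left out, where the adjusted p lay between 0.070 and 0.15.

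Of 9 ITAM and related adaptors including *Fcer1g*, all tested, 0 passed by limma, 0 had an unadjusted p under 0.05 and 0 passed by limma-voom. Among all genes 0.371% and 5.26% passed those limits of limma, so that counts of 0 are near the background. *Tyrobp*, which encodes DAP12, the other main ITAM adaptor of monocytes, had 2146, 3256 and 3867 normalized counts in Sykdel/del and 2714, 2978.5 and 3189 in Syk+/+. Like *Fcer1g* it had its lowest and highest values in Sykdel/del, with a log2 fold change of 0.02 (95% interval -0.34 to 0.38).

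SRC family kinases phosphorylate the ITAM. Of 8 genes 7 were tested, 1 was lower and 0 higher. Their median on the log2 scale was -0.25. *Fyn* had 176, 183 and 195 normalized counts in Sykdel/del and 276, 406 and 305 in Syk+/+, or -0.81 on the log2 scale (SE 0.14, limma adjusted p = 0.023). *Fgr* had -0.25 (limma adjusted p = 0.76), with an unadjusted p under 0.05, while *Lyn*, a main kinase of the ITAM in myeloid cells, had -0.09 (adjusted p = 1.00). For 5 of the 7 genes every Sykdel/del library lay under every Syk+/+ library, as for 5.19% of all genes. The call of *Fyn* ended without the trend (adjusted p = 0.45) and when Sykdel/del replicate 2 or any 1 Syk+/+ library was left out, where the adjusted p lay between 0.052 and 0.13.

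Of 26 genes of SYK, its adaptors and effectors, 25 were tested, 1 was lower and 0 higher, with a median of -0.06 on the log2 scale. *Pik3ap1* encodes BCAP, an adaptor that recruits phosphoinositide 3-kinase. It had 392, 394 and 457 normalized counts in Sykdel/del and 688, 1028 and 708 in Syk+/+, or -0.94 on the log2 scale (SE 0.14, limma adjusted p = 0.011). *Blnk*, an adaptor best known from B cells, was counted at 10, 6.3 and 1.6 in Sykdel/del and 19.6, 13.4 and 23.1 in Syk+/+ (log2 fold change -1.70, adjusted p = 0.35). *Lcp2*, which encodes the adaptor SLP-76, and *Pik3cg*, a catalytic subunit of phosphoinositide 3-kinase, had -0.13 and 0.12 (adjusted p = 1.00 for both). The call of *Pik3ap1* ended without the trend (adjusted p = 0.44), without Syk+/+ replicate 2 (-0.75, adjusted p = 0.053) and without Sykdel/del replicate 2 (-0.91, adjusted p = 0.068).

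Genes that carry out phagocytosis were not called. Of 17 genes of the phagocytic cup and the oxidase, all tested, 0 passed by limma, 0 had an unadjusted p under 0.05 and 0 passed by limma-voom, with a median log2 fold change of -0.0073. Those limits of limma were passed by 0.371% and 5.26% of all genes, so that counts of 0 are near the background. *Myo1g*, a myosin of the leukocyte membrane, had -0.15 (95% interval -0.35 to 0.06), and *Cybb*, the catalytic subunit of the phagocyte oxidase, had 0.10 (95% interval -0.14 to 0.34).

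The inhibitory side was likewise not called. The median log2 fold change of the 15 genes, all tested, was -0.07. By limma 0 passed, against 0.371% of all genes, and 0 passed by limma-voom. Before adjustment 1 had a limma p under 0.05, against 5.26% of all genes. That gene was *Cblb*, which encodes a ubiquitin ligase that restrains receptor signalling. It had 628.5, 504 and 646 normalized counts in Sykdel/del and 869, 941 and 729 in Syk+/+, or -0.51 on the log2 scale (SE 0.12, limma adjusted p = 0.13). *Inpp5d*, which encodes SHIP1, the effector of FcγRIIB, had -0.12 (95% interval -0.32 to 0.08), and *Ptpn6*, which encodes the phosphatase SHP-1, had -0.14 (95% interval -0.35 to 0.06).

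**Figure D5:**
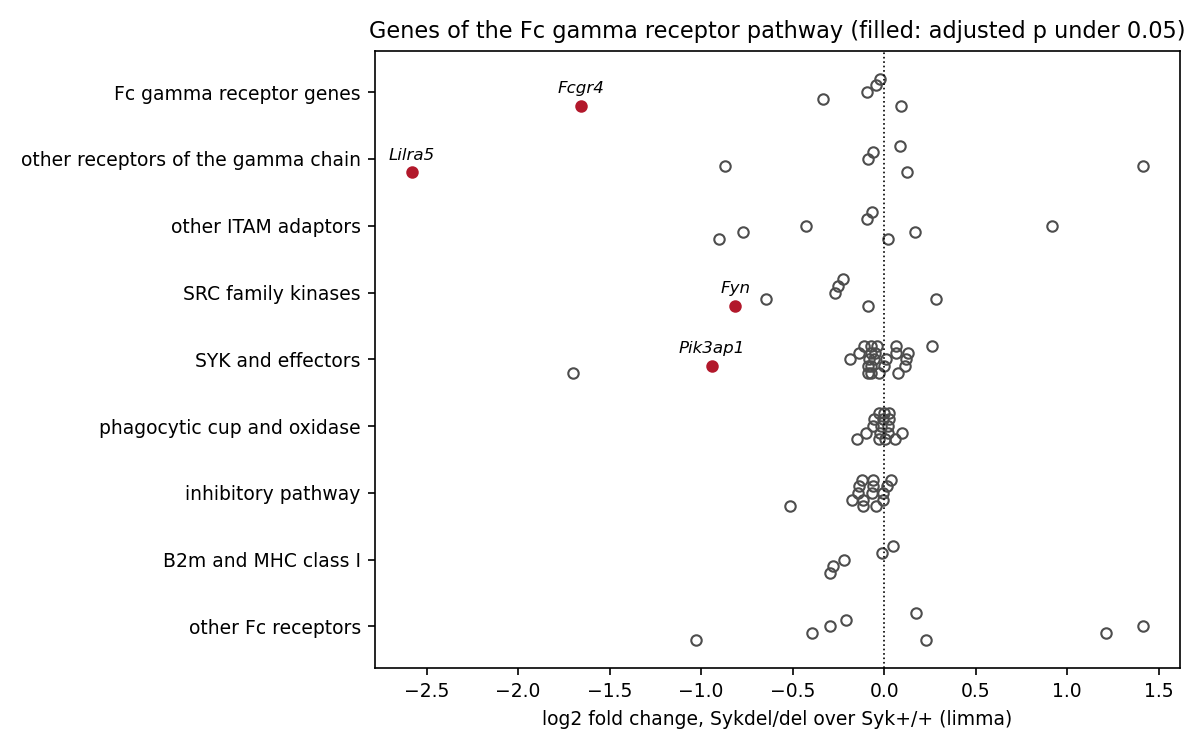
Log2 fold change, Sykdel/del over Syk+/+, of each tested gene in the lists of the pathway, 1 point per gene and list, filled where the adjusted p from limma was under 0.05. *Fcgr4* (-1.66), *Lilra5* (-2.58), *Fyn* (-0.81) and *Pik3ap1* (-0.94) are filled, and most other points lie near 0.

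Partners of the neonatal receptor were counted as well. *B2m*, the light chain that FcRn shares with MHC class I, had 2539, 2963 and 3263 normalized counts in Sykdel/del and 3956, 3514 and 3249.9 in Syk+/+. The genotypes overlapped in 1 pair of libraries, and the log2 fold change was -0.29 (SE 0.11, 95% interval -0.53 to -0.05, adjusted p = 0.74). Of the 5 genes of this list 0 passed by limma or by limma-voom, and 1 (*B2m*) had an unadjusted p under 0.05. Among all genes 0.371% passed by limma and 5.26% had an unadjusted p under 0.05.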

How the data were processed

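Total RNA of bone marrow monocytes, 3 libraries per genotype, was depleted of rRNA and made into directional, paired-end libraries. Mapping to GRCm38/mm10 and counting per gene were done by the authors in CLC Genomics Workbench. No source used here gives its version, annotation, strand setting or rule for multiply matching reads. Values were deposited as log2(x + 1). Although the methods name TPM, 1 step per library fits 100% of values above 0 to whole reads with a tolerance of 0.1, which makes x a scaled read count. The table also holds the p-values of the authors' own comparison, which were left out.

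Genotypes were compared with limma 3.58.1 under R 4.3.3, with its variance prior following the mean, on the deposited log2 values of all 14023 genes with x of at least 1 in at least 3 libraries, with Benjamini-Hochberg adjustment and a threshold of 0.05. Fold changes on log2(x + 1) understate changes of low genes. The fit was also run on simulated counts with known changes, which tests the code and not the call of any gene here. Lengths, exons and transcripts are from GENCODE M21 (GRCm38), promoters from RefSeq (GRCm38.p6). Alternatives were other pseudocounts, filters, scalings and variance models, limma-voom and thinning on recovered reads, a replicate block, and leaving out each library. The genes named are the 6 receptors, *Syk*, up to 4 genes with the smallest p per list, the genes most like each receptor by Pearson r, the most abundant markers of a list, and genes chosen after their values were seen (*Pcp4l1*, *Sdhc*, *Lyn*, *Tyrobp*, *Inpp5d*, *Ly6c2*, *Eno3*, *Treml4*, *Ace*, *Adgre4*, *Pparg*, *Dusp16*, *C1qc*, *Cd5l*, *Nkg7*, *Cd79b*, *Cd22*, *Ms4a1*, *Jchain*, *Tnfrsf17*, *Derl3*). Some items are not reported here. Members and lists were chosen with earlier results of these data known.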

Additional observations from a re-analysis of the deposited data

How the results depend on the processing

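*Fcgr4* kept its direction under all 17 alternatives and its call under 13, with log2 fold changes of -1.88 to -1.32 and adjusted p-values of 0.0054 to 0.47. Without the trend of variance on mean, its -1.66 was not called, so that 0 of the 6 receptor genes and 0 of the 91 pathway genes passed. Leaving out each library gave 0 to 1 called receptor genes, 0 to 3 called pathway genes and -1.88 to -1.32 for *Fcgr4*. At a threshold of 0.10 the count of receptor genes was 1. The sign turned for *Fcer1g*, *Fcgr2b* and *Fcgrt* without Sykdel/del replicate 1, and for *Fcgrt* also without Syk+/+ replicate 1 (0.0055). Leaving out each library gave -0.21 to 0.063 for *Fcer1g*, -0.10 to 0.013 for *Fcgr2b* and -0.15 to 0.11 for *Fcgrt*. None of these 3 genes was called under any alternative. Calls over all genes numbered 52, and 6 without the trend, 34 with limma-voom, 34 with thinned reads and 4 to 92 when a library was left out. Over 10 thinning draws *Fcgr4* had adjusted p-values of 0.0078 to 0.024. The cause of these changes was not tested. The log2 ratios to *Fcgr2b* moved by less than 1 SD, although the difference in the ratio of *Fcer1g* (-0.05) was 0.05 without Sykdel/del replicate 1. Levels per kilobase could move with the longest transcript for *Fcer1g* alone (3421 against 3467 in Syk+/+), since for the other 5 genes it is the principal one. Libraries with the same replicate number did not deviate together (Pearson r of 0.027, 0.050 and -0.024 over 10817 genes), and with a replicate block *Fcgr4* had -1.66 (adjusted p = 0.020), 1 receptor gene and 3 pathway genes were called, and 53 genes in all. Depth limits the low genes most in Sykdel/del replicate 3, where 1 read is worth 1.56 normalized counts.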

Other observations

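Of 13 other genes of or related to Fc receptors 8 were tested, and 5 (*Fcmr*, *Fcamr*, *Pigr*, *Fcrl5* and *Fcrlb*) did not pass the filter on low values. By limma 0 of the 8 passed, 0 had an unadjusted p under 0.05 and 0 passed by limma-voom. Those limits of limma were passed by 0.371% and 5.26% of all genes, so these counts of 0 are near the background. *Trim21*, which encodes a receptor for antibodies inside the cell, had 291.5, 273 and 307 normalized counts in Sykdel/del and 248, 258 and 266 in Syk+/+. Every Sykdel/del library lay above every Syk+/+ library, as 10.1% of all genes tested do in either direction, and the log2 fold change was 0.17 (95% interval -0.05 to 0.40, adjusted p = 1.00). *Fcer1a*, the IgE receptor chain of mast cells and basophils, averaged 5.87 ± 2.46 in Sykdel/del and 2.53 ± 3.64 in Syk+/+ (log2 fold change 1.42, adjusted p = 0.97). *Fcer2a*, the low-affinity IgE receptor of B cells, had 12.2, 1.00 and 6.20 normalized counts in Sykdel/del and 5.60, 11.5 and 18.5 in Syk+/+ (log2 fold change -1.03, adjusted p = 1.00).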
